A study of Mus musculus with 8 samples.

Results

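The Wnt receptors described here are the Frizzled genes Fzd1, Fzd2, Fzd4, Fzd6, Fzd7, Fzd8 and Fzd9, the coreceptor genes Lrp5 and Lrp6, and Ror2. They were taken by gene name from the deposited table of protein-coding genes, and all 10 were found among its 22053 rows. The table holds 8 RNA-seq libraries of skeletal cells from wild-type mice of both sexes at postnatal day 10. Of these, 4 were made from candidate vertebral skeletal stem cells of the spine (vSSC) and 4 from long bone skeletal stem cells of the femur and tibia (lbSSC), each with replicates 1 and 2 male and replicates 3 and 4 female. Every library was sorted on one surface phenotype, CD31-TER119-CD45-Thy-6C3-CD200+CD105-, so the comparison is of the same gate at the 2 sites. The labels give no number of animals per sample, and any p-value here therefore reflects how much these biological replicates vary.

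Wnt proteins are secreted, lipid-modified signals that bind the cysteine-rich domain of Frizzled receptors, which cross the membrane several times and recruit Dishevelled inside the cell. When the same ligand also engages Lrp5 or Lrp6, which cross the membrane once, the complex that destroys beta-catenin is inhibited and beta-catenin enters the nucleus to act with Tcf and Lef factors. Ror2 is a receptor tyrosine kinase family member that binds Wnt5a and serves branches of the pathway that do not need beta-catenin. In bone, Wnt signalling through Lrp5 is a known determinant of bone mass, and in growing cartilage Wnt5a and Ror2 are needed for normal limb elongation.

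Values are FPKM, which count fragments per length of transcript and per depth of library. Levels of different genes can be set side by side only roughly, since a trend on transcript length remained and differed between libraries. Each difference subtracts the lbSSC mean from the vSSC mean of log2(FPKM + 1) and is given with its standard error, and genes are called at an adjusted p under 0.05 (limma over 10729 genes, Benjamini-Hochberg). This scale makes the changes of genes with low FPKM look smaller than they are. In bulk RNA, fewer cells that express a gene and less RNA per cell cannot be told apart.

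The FPKM sum of a library lay between 460302 and 571869, read totals were not used here, and the depth behind a value is unknown. The gate's own markers read as sorted: Cd200 stood at 109.3 ± 22.5 FPKM in vSSC and 101.0 ± 28.1 in lbSSC (SD, n = 4), and Pecam1 (CD31), Ptprc (CD45), Thy1, Enpep (6C3) and Eng (CD105) had means between 0.0402 and 1.22. Of 10 endothelial markers, 9 were under 1 FPKM in every library, with Cdh5 at most 0.0544 and Kdr at most 0.0937, and the other, Egfl7, was higher in vSSC. Summed chondrocyte markers (10 genes) ranged from 23690 to 32577 FPKM in vSSC and from 22709 to 32356 in lbSSC, with Sox9 at 114.2 ± 58.6 and 98.7 ± 20.3 and Col2a1 at 10866 ± 3960 and 14146 ± 4270. Of these 10 chondrocyte markers, 3 were called higher in vSSC and 0 lower. Summed osteoblast markers (10 genes) ranged from 1704 to 2030 in vSSC and from 4691 to 6892 in lbSSC. Col1a1 was 723.4 ± 71.5 FPKM in vSSC and 4093 ± 836 in lbSSC, and 3 of the 10 were called lower and 1 higher in vSSC. Blood and immune markers (12 genes) summed to 228.9 to 372.3 against 24.6 to 103.7 FPKM. Of the 6 tested, 5 were called higher in vSSC (S100a8, at 155.2 against 30.9, S100a9, Lyz2, Cd79a and Coro1a). Ptprc was under 1 FPKM in every library but higher in vSSC without overlap (0.525 against 0.0402), and Cd3e was listed at 0 in all. Erythroid markers (7 genes) summed to 3817 to 5371 against 4282 to 8823, with 2 called lower. The list of 6 muscle markers summed to 15.4 to 22.1 against 3.30 to 4.02, carried by Tnnt3, the one muscle gene tested and higher in vSSC (17.9 ± 3.08 against 3.13 ± 0.408, adjusted p = 2.11e-06). Myod1 and Myf5 were listed at 0 in all libraries. The list of 6 neural and Schwann cell markers summed to 121.6 to 146.2 against 92.4 to 114.0, with 3 of 4 tested called higher in vSSC. The part of these cells in the receptor results was not tested.

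Most receptor genes were expressed at lower levels in vertebral than in long bone cells, and Fzd4 went the other way. Of the 10 genes, 6 were called lower in vSSC (Fzd6, Fzd7, Fzd8, Fzd9, Lrp5 and Lrp6), 1 was called higher (Fzd4), and 3 did not pass (Fzd1, Fzd2 and Ror2). Of all genes tested, 9.17% were called lower, 14.3% higher and 23.5% in either direction. The median difference of the 10 was -0.46, against 0.08 for all genes tested. The groups did not overlap in 7 of the 10, with all 4 vSSC libraries below all 4 lbSSC libraries in 6 and above them in 1, where 25.8% of all genes tested showed no overlap. Every one of the 10 was above 1 FPKM in all 8 libraries, the lowest value being 1.73, so none entered the test through one site alone.

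**Figure D1:**
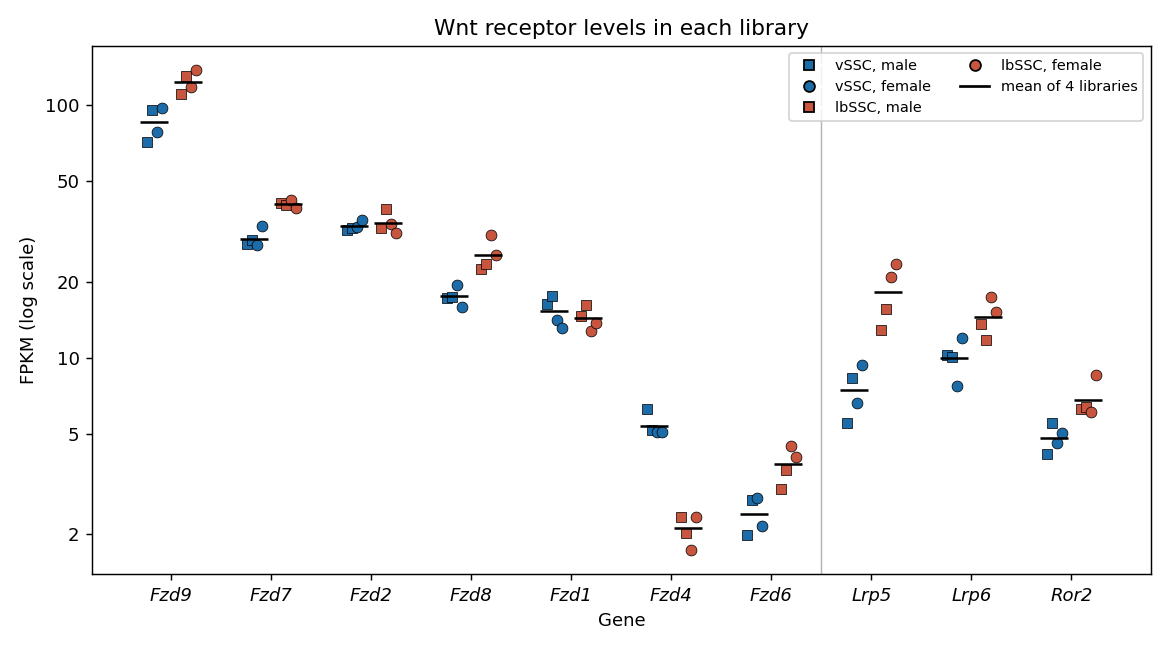
FPKM (log axis) of the 10 receptor genes in each library, blue for vSSC and red for lbSSC, squares for male and circles for female, with a black bar at the mean of 4 libraries. Fzd9 is highest at both sites, and Fzd4 is the gene whose vSSC libraries lie above all lbSSC libraries.

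Fzd9 was the most abundant receptor gene at both sites. In vSSC the order by mean FPKM was Fzd9, Fzd2, Fzd7, Fzd8, Fzd1, Lrp6, Lrp5, Fzd4, Ror2 and Fzd6. The ranges overlapped between Fzd2 and Fzd7, Fzd8 and Fzd1, Lrp6 and Lrp5, Lrp5 and Fzd4, and Fzd4 and Ror2. Within single libraries, however, Fzd2 was above Fzd7 and Lrp6 above Lrp5 in every vSSC library. The order of the other overlapping pairs was not the same in every vSSC library. In lbSSC the order was Fzd9, Fzd7, Fzd2, Fzd8, Lrp5, Lrp6, Fzd1, Ror2, Fzd6 and Fzd4. There the ranges of Fzd8, Lrp5, Lrp6 and Fzd1 overlapped from one to the next, and the other neighbours were apart. Fzd4 was thus last in lbSSC and above Fzd6 in vSSC, and Lrp5 stood below Fzd1 in vSSC.

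Fzd4 and Fzd9 belong to one sequence-related subgroup of Frizzleds, together with Fzd10, and they moved in opposite directions. Fzd4, a receptor for Wnts and also for the unrelated ligand Norrin, best known from blood vessel growth in the retina, read 6.24, 5.15, 5.06 and 5.08 FPKM in vSSC replicates 1 to 4 and 2.34, 2.02, 1.73 and 2.34 in lbSSC replicates 1 to 4. All vSSC values were above all lbSSC values, and vSSC replicate 1 was the highest. The means were 5.38 ± 0.57 and 2.11 ± 0.294, a ratio of 2.55, and the difference was 1.04 ± 0.14 (adjusted p = 0.000379). Fzd9, a receptor with a known part in osteoblast function and bone formation, read 71.3, 95.5, 78.5 and 97.4 FPKM in vSSC and 110.1, 129.9, 117.9 and 137.7 in lbSSC. Its groups did not overlap, with means of 85.7 ± 12.8 and 123.9 ± 12.2, a ratio of 0.691 and a difference of -0.53 ± 0.13 (adjusted p = 0.0117). The call of Fzd9 was lost without vSSC replicates 1 and 3 together (-0.35, adjusted p = 0.130). Fzd10 was under 1 FPKM in every library and was not tested. On GRCm38, Fzd4 lies on chromosome 7 at 89404355 to 89413134 with 2 exons, and Fzd9 on chromosome 5 at 135248938 to 135251230 as a gene of 1 exon.

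The Fzd1, Fzd2 and Fzd7 genes form a second closely related subgroup, and they did not share one result. Fzd7, a receptor known for its part in stem and progenitor cells of several tissues, read 28.1, 29.1, 27.9 and 33.2 FPKM in vSSC and 40.9, 40.2, 41.9 and 39.1 in lbSSC. The groups were apart, and the lbSSC libraries lay close to each other. The difference was -0.44 ± 0.10 (ratio of means 0.730, adjusted p = 0.00890), and the call was lost without vSSC replicates 1 and 3 together (-0.37, adjusted p = 0.0866). Fzd2, which is mutated in forms of human skeletal dysplasia with short limbs, read 32.1, 32.5, 32.8 and 35.2 FPKM in vSSC and 32.6, 38.6, 33.8 and 31.1 in lbSSC. The groups overlapped (difference -0.03 ± 0.10, 95% interval -0.26 to 0.19, adjusted p = 0.834). Fzd1 read 16.3, 17.6, 14.1 and 13.1 against 14.6, 16.1, 12.8 and 13.8 FPKM. It did not pass either (0.08 ± 0.13, 95% interval -0.19 to 0.36, adjusted p = 0.651), and its sign was below 0 after quantile normalization (-0.01), after rescaling to one sum (-0.05) and when the ribosomal protein share was fitted too (-0.08). Whether Fzd7 differed from Fzd1 and Fzd2 in its response to site was not tested. All 3 are genes of 1 exon, Fzd7 on chromosome 1 at 59482424 to 59486955, Fzd2 on chromosome 11 at 102604396 to 102608058 and Fzd1 on chromosome 5 at 4753839 to 4758035.

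RefSeq promoter windows on GRCm38.p6 were matched for 5 of the 10 genes (Fzd1, Fzd4, Fzd7, Fzd9 and Ror2), and those of Fzd4, Fzd7 and Fzd1 are shown because they stand for the gene that was higher, a gene that was lower and a gene that did not pass. Each is the part of the 250 bases before the RefSeq start that no annotated exon covers, 5′ to 3′ on the gene's strand, with motif matches in capitals. They lie at chr7:89404223-89404354 (plus strand), chr1:59481897-59482146 (plus strand) and chr5:4758217-4758466 (minus strand).
Fzd4: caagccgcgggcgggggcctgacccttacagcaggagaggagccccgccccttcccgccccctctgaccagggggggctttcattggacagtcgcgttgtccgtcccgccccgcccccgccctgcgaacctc
Fzd7: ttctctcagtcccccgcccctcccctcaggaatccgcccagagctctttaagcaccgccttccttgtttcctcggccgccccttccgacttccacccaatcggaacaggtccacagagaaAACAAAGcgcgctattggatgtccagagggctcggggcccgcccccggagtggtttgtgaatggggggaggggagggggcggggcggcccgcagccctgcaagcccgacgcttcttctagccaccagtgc
Fzd1: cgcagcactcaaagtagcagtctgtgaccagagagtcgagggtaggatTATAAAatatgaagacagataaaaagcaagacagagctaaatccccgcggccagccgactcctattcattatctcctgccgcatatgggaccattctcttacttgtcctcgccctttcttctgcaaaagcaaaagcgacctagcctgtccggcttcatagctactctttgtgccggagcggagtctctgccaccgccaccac

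The windows differed in base composition. The full 250 bases before the start were 72.8% G and C in Fzd4, with 25 CG dinucleotides, 65.2% with 17 in Fzd7 and 51.2% with 12 in Fzd1, where the median of 32841 RefSeq windows of that length was 52.4% with 6. Motifs were searched on both strands. For Tcf and Lef factors the letters were CTTTGAA, the form CTTTGAT, the form CTTTGTA or the form CTTTGTT; for a TATA box they were TATAAA and for Runx factors TGTGGT. No match overlapped another. The capitals in Fzd7 are a CTTTGTT match on the opposite strand, 130 bases before the start, a form held by 5.03% of all windows, and 14.8% held any of the 4 Tcf and Lef forms. The capitals in Fzd1 are a TATAAA match 202 bases before the start, found in 12.4% of all windows. TGTGGT, found in 14.0%, had no match in the 5 receptor windows. These matches are descriptions of the letters and not of bound sites.

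Fzd8 and Fzd6 were both called lower in vSSC, the first more firmly than the second. Fzd8, a close relative of Fzd5 whose cysteine-rich domain was used to show how Wnts grip their receptor, read 17.3, 17.4, 19.5 and 15.9 FPKM in vSSC and 22.5, 23.5, 30.6 and 25.5 in lbSSC. The groups did not overlap, and the difference was -0.51 ± 0.12 (ratio of means 0.686, adjusted p = 0.0127). Fzd6, a receptor of planar cell polarity that orients hair follicles, was the lowest of the 10 genes in vSSC, at 1.99, 2.72, 2.77 and 2.15 FPKM against 3.01, 3.58, 4.48 and 4.06 in lbSSC. Its groups were also apart (-0.48 ± 0.15, adjusted p = 0.0419). The call of Fzd6 was lost in each fit without a vSSC library (adjusted p = 0.0940 without replicate 1, 0.0538 without 2, 0.0520 without 3, 0.0723 without 4) and without lbSSC replicate 2 (0.0679), 3 (0.125) or 4 (0.111). An exon of Fzd6 overlaps one of Gm26704, a long noncoding RNA gene on the opposite strand. The library kit does not mark strand, so reads within the shared stretch cannot be told apart. The deposited locus of Fzd8 is on chromosome 18 at 9212856 to 9216201 and that of Fzd6 on chromosome 15 at 39006280 to 39038186. GENCODE M21 gives wider spans, 9212163 to 9218136 for Fzd8 with 1 exon and 39006034 to 39038188 for Fzd6 with 7.

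The 3 remaining Frizzled genes, named here outside the naming rule so that the family is complete, were low. Fzd5 was lower, with 1.01 ± 0.294 against 2.33 ± 0.672 FPKM (-0.72 ± 0.18, adjusted p = 0.0174), a call lost with the ribosomal share in the model, without lbSSC replicate 3 and without vSSC replicates 1 and 3 together. Fzd3 was at 2.17 ± 0.365 and 2.38 ± 0.213 (adjusted p = 0.647). With Fzd10 untested, the family counted 5 lower, 1 higher and 3 not called among the 9 Frizzled genes tested.

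Lrp5 had the largest decrease of the 10 genes. It read 5.49, 8.32, 6.61 and 9.32 FPKM in vSSC replicates 1 to 4 and 12.8, 15.6, 20.9 and 23.5 in lbSSC replicates 1 to 4. The groups did not overlap, and in lbSSC the female libraries were above the male ones. The means were 7.44 ± 1.71 and 18.2 ± 4.85, a ratio of 0.409, and the difference was -1.17 ± 0.20 (adjusted p = 0.00189). Lrp6, the close relative of Lrp5 that embryos need for most beta-catenin signalling, read 10.2, 10.03, 7.71 and 11.98 FPKM in vSSC and 13.6, 11.8, 17.5 and 15.1 in lbSSC. Here vSSC replicate 4 was above lbSSC replicate 2, so the groups overlapped, and the difference was -0.50 ± 0.16 (ratio of means 0.690, adjusted p = 0.0393). The call of Lrp6 was lost without vSSC replicate 1 (adjusted p = 0.0668), 2 (0.0718) or 3 (0.105) and without lbSSC replicate 1 (0.0553), 3 (0.119) or 4 (0.0977). On GRCm38, Lrp5 lies on chromosome 19 at 3584828 to 3686564 and Lrp6 on chromosome 6 at 134446476 to 134566965, each with 23 exons, and their longest coding transcripts are 5161 and 9368 bases.

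Ror2 was lower in vSSC on average without passing the test. It read 4.15, 5.51, 4.59 and 5.04 FPKM in vSSC and 6.28, 6.35, 6.07 and 8.51 in lbSSC. All vSSC values were below all lbSSC values, and lbSSC replicate 4 stood above the rest. The difference was -0.42 ± 0.14 (95% interval -0.73 to -0.10, adjusted p = 0.0557). It passed after median-of-ratios scaling (adjusted p = 0.0440), after rescaling to one sum (0.0356) and when genes under an FPKM of 5 were left out (0.0497). Ror2 lies on chromosome 13 at 53109312 to 53286124 and has 9 exons.

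**Figure D2:**
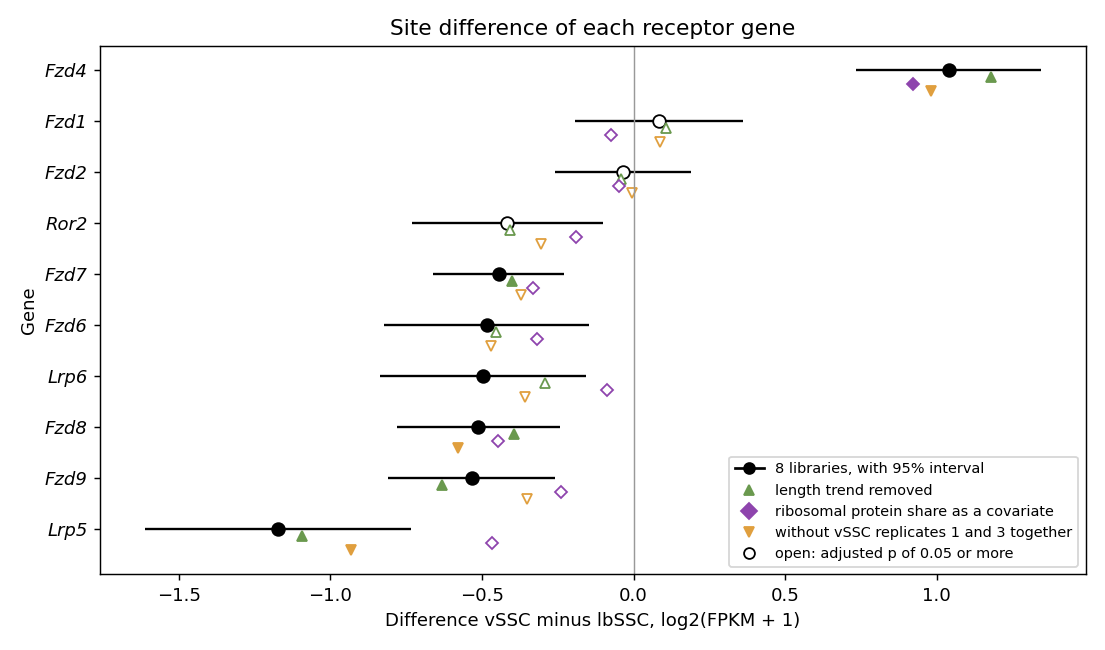
Site difference (vSSC minus lbSSC) in log2(FPKM + 1) for each receptor gene, with black circles and lines for the fit over 8 libraries and its 95% interval, and coloured marks for 3 other fits. Filled marks have an adjusted p under 0.05, and Fzd4 is the one gene filled in every fit shown.

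Some traits of the libraries separated the sites in part, and calls of the decreases were lost in fits that took them into account. The genes of 75 cytosolic ribosomal proteins took 18.0% to 21.1% of the FPKM sum in vSSC and 15.4% to 18.1% in lbSSC, with vSSC replicates 1 and 3 highest (20.8% and 21.1%) and lbSSC replicates 3 and 4 lowest (15.5% and 15.4%). Long transcripts read relatively lower in vSSC replicates 1 and 3 and higher in lbSSC replicates 3 and 4: the slope of a library's deviation on log2 transcript length ran from -0.145 to 0.0304 in vSSC and from -0.0221 to 0.154 in lbSSC. When that ribosomal share was added to the model, 0 of the 10 genes were called lower in the limma fit and Fzd4 was called higher (0.92, adjusted p = 0.0300), while all genes gave 613 calls in place of 2518. In that fit Lrp5 was at -0.47 (adjusted p = 0.182), Lrp6 at -0.09 (0.877), Fzd9 at -0.24 (0.475), Fzd8 at -0.45 (0.237), Fzd7 at -0.33 (0.205) and Fzd6 at -0.32 (0.587). The standard errors of these genes were larger than without the share, as for Fzd8 (0.18 against 0.12), except that of Lrp5 (0.17 against 0.20). Without vSSC replicates 1 and 3 together, 2 of the 10 were called lower, Lrp5 (-0.93, adjusted p = 0.0227) and Fzd8 (-0.58, 0.0361), and Fzd4 stayed called (0.98, 0.00389). Of all genes tested, 1095 were called without those 2 libraries, in place of 2518, and 5.52% were called lower. With the trend on transcript length removed, 4 were lower (Fzd7, Fzd8, Fzd9 and Lrp5) and Fzd4 was higher, while Lrp6 was at -0.29 (adjusted p = 0.0952) and Fzd6 at -0.45 (0.0507). There 10.2% of all genes tested were called lower. Because the ribosomal share and the site are nearly confounded, their parts cannot be told apart in these 8 libraries.

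The libraries of the 2 sites that lie closest in ribosomal protein share are vSSC replicates 2 and 4 and lbSSC replicates 1 and 2. Among these 4, both vSSC values were below both lbSSC values in 6 genes, above them in 1 and mixed in 3. Of all genes tested, 24.1% lay below and 27.2% above in the same 4 libraries. Lrp5 was at 8.32 and 9.32 against 12.8 and 15.6 FPKM, Fzd7 at 29.1 and 33.2 against 40.9 and 40.2, and Fzd8 at 17.4 and 15.9 against 22.5 and 23.5. Lrp6 was at 10.03 and 11.98 against 13.6 and 11.8 FPKM and was mixed, as were Fzd1 and Fzd2. Fzd4 was at 5.15 and 5.08 against 2.34 and 2.02. With 2 libraries a side, these are values without a test.

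**Figure D3:**
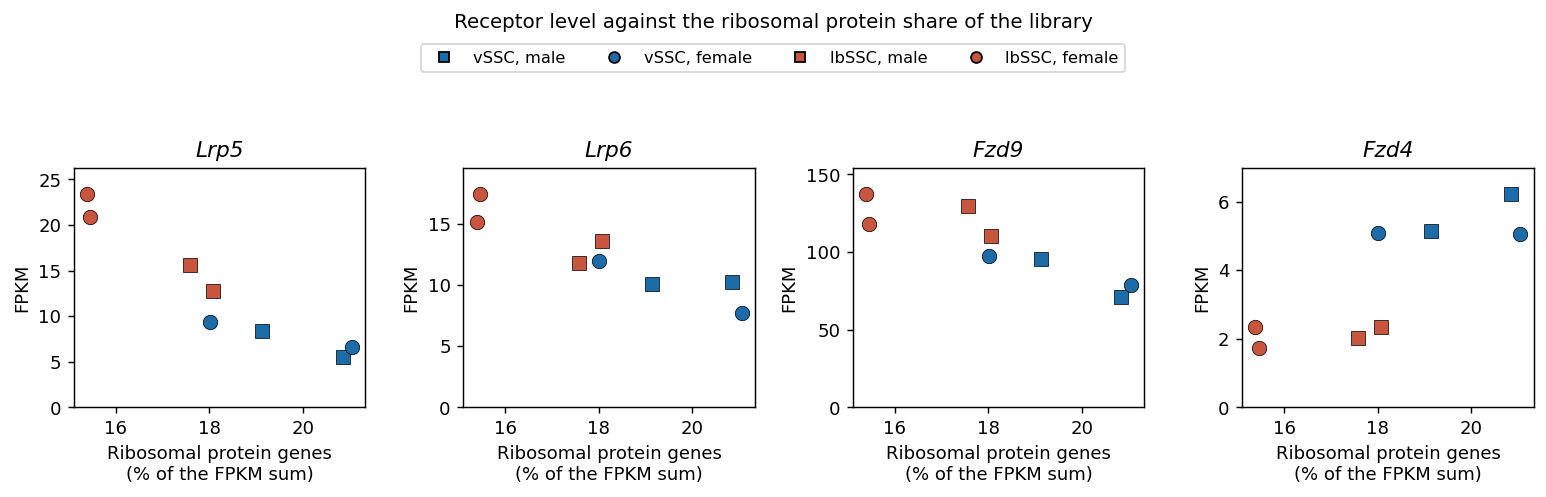
FPKM of Lrp5, Lrp6, Fzd9 and Fzd4 in each library against the percent of the FPKM sum in ribosomal protein genes, blue for vSSC and red for lbSSC, squares male and circles female. The lbSSC libraries with the lowest share have the highest Lrp5 (20.9 and 23.5 FPKM), while Fzd4 stays between 1.73 and 2.34 over all 4 lbSSC libraries.

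Ratios of receptor genes within a library do not depend on a scaling factor of the library, and several of them were apart between the sites. The 7 Frizzled genes summed to 189 ± 14.3 FPKM in vSSC and 244.2 ± 13.05 in lbSSC. Fzd9 made up 45.1% ± 3.42 of that sum in vSSC and 50.7% ± 2.71 in lbSSC (SD, n = 4), and the groups were narrowly apart, with 48.2% the highest in vSSC and 48.5% the lowest in lbSSC. The lowest shares of Fzd9 were in vSSC replicates 1 and 3 (41.1% and 43.4%), the libraries with the highest ribosomal protein share. Fzd2 took 17.6% ± 1.02 against 14.0% ± 1.24, and Fzd1 took 8.13% ± 1.27 against 5.87% ± 0.617, also without overlap. A share also rises when other genes in the sum fall, and neither Fzd1 nor Fzd2 was called in its own FPKM. Fzd4 was a small part at both sites, with 2.87% ± 0.5002 against 0.866% ± 0.142. The shares of Fzd6, Fzd7 and Fzd8 overlapped between the sites. Sums and shares over a chosen set of genes carry no test here.

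The balance of the coreceptor pair was apart between the sites, as values without a test. The ratio of Lrp6 to Lrp5 FPKM was 1.86, 1.21, 1.17 and 1.29 in vSSC replicates 1 to 4 and 1.06, 0.752, 0.835 and 0.645 in lbSSC replicates 1 to 4. All vSSC ratios were above all lbSSC ratios, and vSSC replicate 1 was the highest. Lrp6 was therefore the more abundant of the pair in every vSSC library and in lbSSC replicate 1, and Lrp5 in the other lbSSC libraries. Their sum was 17.4 ± 3.07 FPKM in vSSC and 32.7 ± 6.70 in lbSSC. Neither the ribosomal protein share nor the trend on transcript length was accounted for in the ratio. The longest coding transcripts differ, with 5161 bases for Lrp5 and 9368 for Lrp6.

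**Figure D4:**
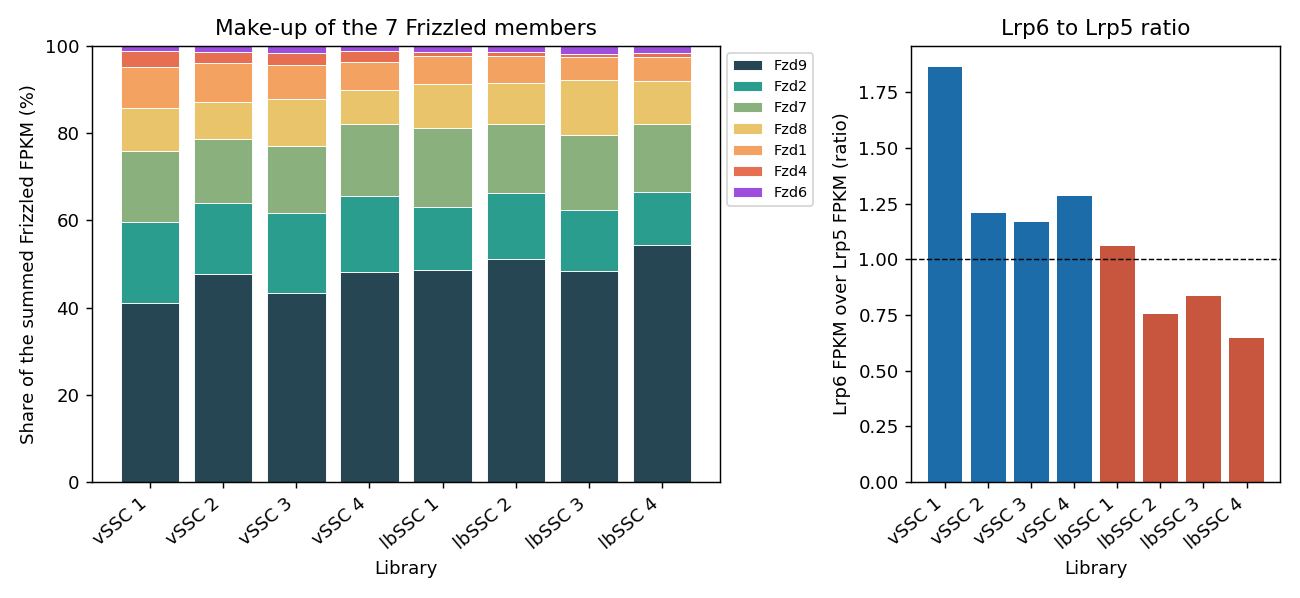
Left, the percent of the summed FPKM of the 7 Frizzled genes that each takes in every library; right, the ratio of Lrp6 to Lrp5 FPKM per library, blue for vSSC and red for lbSSC, with a dashed line at 1. Fzd9 takes 41.1% to 54.3% of the Frizzled sum, and the ratio is above 1 in all vSSC libraries and in lbSSC replicate 1.

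The receptor genes showed no called difference between male and female libraries. With site as a term, limma called 0 of the 10 between the sexes, where 0.0466% of all genes were called, and 2 of the 10 had an unadjusted p under 0.05. These were Lrp5, with means of 10.6 FPKM in male and 15.1 in female libraries (male minus female -0.40 ± 0.17, adjusted p = 0.585), and Fzd1, with 16.2 and 13.4 FPKM (0.25 ± 0.11, adjusted p = 0.585). In lbSSC the female libraries also had a lower ribosomal protein share (15.5% and 15.4%) than the male ones (18.1% and 17.6%). Sex and that share cannot be told apart there. No gene was called for an interaction of site and sex, 0% of those tested, with 405 of 10729 genes and 0 of the 10 at an unadjusted p under 0.05. The site difference of Fzd4 was 1.07 in males and 1.01 in females, and that of Lrp5 was -0.96 in males and -1.38 in females, with 2 libraries of each sex per site (interaction adjusted p = 0.990 and 0.981).

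Genes with the most similar pattern to the receptor with the largest increase and to the one with the largest decrease were taken by the root mean square distance of their 8 centred log2 values. For Fzd4 they were P4ha2, a prolyl hydroxylase subunit of collagen synthesis (distance 0.107), Lfng, a glycosyltransferase that modifies Notch (0.114), and Lsp1, an actin-binding protein (0.115). For Lrp5 they were Ltbp1, a latent TGF-beta binding protein (0.108), Itga11, a collagen-binding integrin subunit (0.113), and the gene model 6030419C18Rik (0.113). Mean FPKM of P4ha2 was 174.3 in vSSC against 90.0 in lbSSC, and that of Ltbp1 was 4.41 against 11.5.

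Around the receptors, 100 other genes of the pathway were listed by role, of which 66 were tested. Of these, 5 were higher in vSSC, 16 lower and 45 not called (31.8% called, median -0.17). Of all genes tested, 23.5% were called, 14.3% higher and 9.17% lower, and the counts of each list stand against these shares. The planar cell polarity list lay near them, with 25% called. Of 11 secreted antagonists tested 7 were lower and 1 higher, among them the Wnt-binding Sfrp1 (-3.35 ± 0.15), Sfrp2 (-2.14 ± 0.27) and Sfrp5 (-1.54 ± 0.20), which share the cysteine-rich fold of Frizzleds, Dkk3 (-1.61 ± 0.22) and the membrane inhibitor Apcdd1 (-1.06 ± 0.18), with Frzb and Sostdc1 completing the count. The call of Sostdc1 was lost in 13 of 19 alternatives, among them the fits without vSSC replicate 1, 2 or 3 and without lbSSC replicate 3 or 4. Notum, an enzyme that removes the lipid from Wnts, was the one that was higher (77.6 ± 10.9 against 35.6 ± 2.39 FPKM). Among genes that set how much receptor reaches or stays on the surface, 2 of 8 were higher and 2 lower. Rspo3, a secreted protein that spares Frizzled and Lrp proteins from removal, was at 13.2 ± 1.96 against 3.76 ± 0.771 FPKM (1.58 ± 0.16, adjusted p = 5.99e-05), and its receptor Lgr4 at 37.0 ± 4.71 against 23.3 ± 1.00 (0.64 ± 0.11, adjusted p = 0.00252). Shisa2, of a family that holds Frizzleds back in the endoplasmic reticulum, was lower at 45.2 ± 3.42 against 76.2 ± 5.08 FPKM (-0.74 ± 0.10, adjusted p = 0.000391). The ubiquitin ligase Znrf3, which removes Frizzleds, was the other lower gene (-0.56 ± 0.18, adjusted p = 0.0448), a call lost in 12 of 19 alternatives, among them each fit without a single library other than vSSC replicate 4 and lbSSC replicate 2 (adjusted p up to 0.557 over all alternatives).

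Of 14 genes of signal transduction 1 was lower, Gsk3b (-0.45 ± 0.14, adjusted p = 0.0363, lost in 11 of 20 alternatives, among them every fit without 1 library except that without vSSC replicate 4), and beta-catenin itself, Ctnnb1, was at 292.6 ± 19.8 against 240.8 ± 18.4 FPKM without passing (adjusted p = 0.0628). Of 8 nuclear factors 1 was lower, Tcf7 (-0.55 ± 0.15, adjusted p = 0.0225), a call lost in 5 of 20 alternatives, among them the fits without vSSC replicate 1, lbSSC replicate 2 or lbSSC replicate 3. Among 9 target genes tested 2 were higher and 3 lower: Ccnd1 (1.18 ± 0.14) and Notum were higher, and Apcdd1, Tcf7 and Znrf3 lower. Axin2, a widely used readout named here after its values were seen, was at 2.16 ± 0.350 and 2.40 ± 0.454 FPKM (adjusted p = 0.667). Of 7 other Wnt receptors tested, 2 were lower, Fzd5 and Reck (-0.43 ± 0.10, adjusted p = 0.0108), while Ror1, the relative of Ror2, was at 1.29 ± 0.512 against 1.96 ± 0.401 FPKM (adjusted p = 0.155). Of 8 planar cell polarity genes 2 were lower, Daam2 (-0.98 ± 0.22, lost in 2 of 20 alternatives) and Prickle2 (-0.59 ± 0.18, lost in 10 of 19, among them every fit without 1 library except those without vSSC replicate 4 or lbSSC replicate 3).

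**Figure D5:**
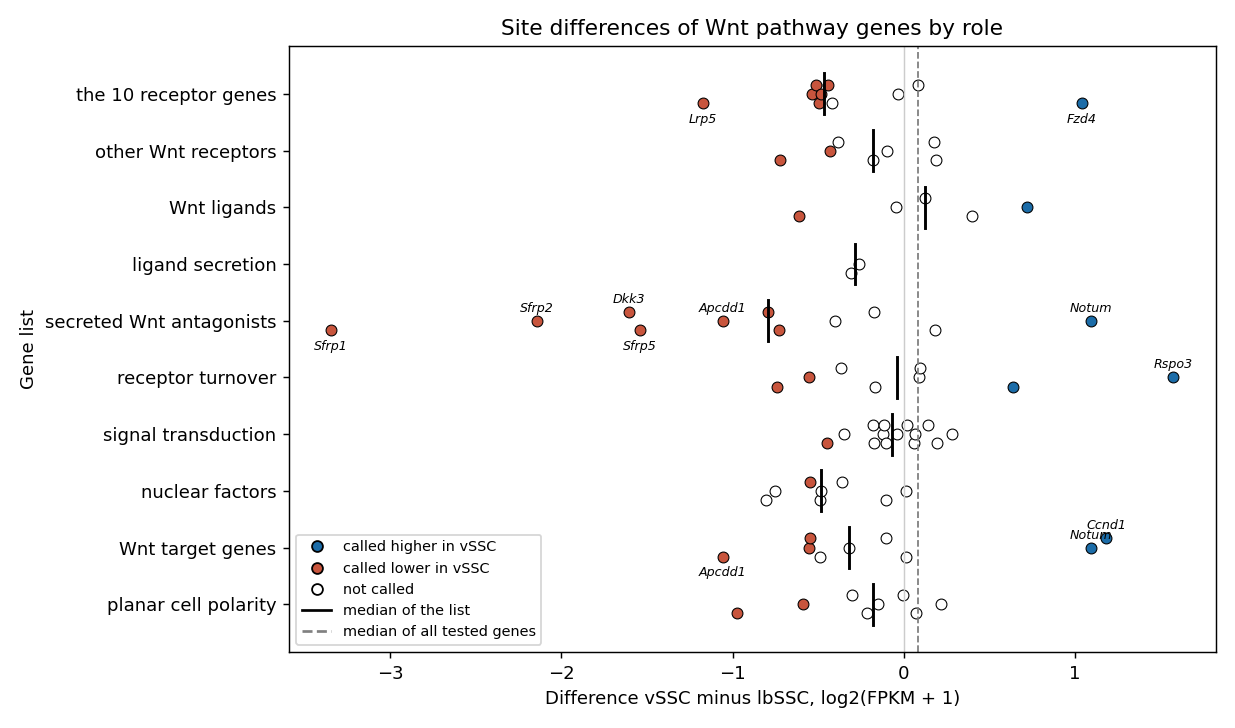
Site difference (vSSC minus lbSSC) in log2(FPKM + 1) for every tested Wnt pathway gene, one row per list, blue when called higher in vSSC, red when called lower and white when not called, with a black bar at the median of the list and a dashed line at the median of all genes tested. The receptor genes have a median of -0.46 and the secreted antagonists one of -0.79, and a gene on 2 lists is drawn in both.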

How the data were processed

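The 4 vSSC and 4 lbSSC libraries were prepared by SMART-Seq v4 followed by Nextera XT, per the labels' protocols. The authors deposited FPKM for each protein-coding gene; bcl2fastq 2.19, STAR 2.5.2, Cufflinks 2.1.1 and GRCm38 are named in the submitters' processing notes, and their settings are not given. Columns were matched to samples by the descriptions. Of the rows, 99.2% matched GENCODE M21, and 1 was added to each start, since 82.2% of listed starts lay 1 below the annotated one.

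With R 4.3.3, log2(FPKM + 1) was tested by limma 3.58.1 for the 10729 genes that reached an FPKM of 1 in 4 or more libraries (variance trend): the site without covariates, sex with site as a term, and their interaction. The procedure was tested on simulated data. Members and lists were chosen with earlier results of these data known. Of the listed genes, 3 were matched by identifier, and Acta1 and Tubb3 were not used here. Of each pathway list the text names up to 3 genes with the smallest p and those apart between sites by at least 1 on the log2 scale; other names are marked or complete a count. Alternatives were a pseudocount of 0.1, a filter of FPKM 5 or none, 3 other scalings, no variance trend, a term for sex, for ribosomal protein share or for replicate number (block), libraries left out, and, added after the data were seen, a loess on transcript length (span 0.5).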

Additional observations from a re-analysis of the deposited data

Results flagged for a closer look

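Within the groups of 4, 2 of 20 combinations of receptor gene and site had a library far from the other 3, by the size of its gap to the nearest value relative to the range; chance alone flags about 1 group in 20. Fzd4 was at 6.24 FPKM in vSSC replicate 1, with the other vSSC libraries between 5.06 and 5.15, and without that library its difference was 0.98 (limma, adjusted p = 0.00119). Ror2 was at 8.51 FPKM in lbSSC replicate 4, with the other lbSSC libraries between 6.07 and 6.35, and without it the difference was -0.32 (adjusted p = 0.164).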

How the results depend on the processing

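Fzd4 was called higher in vSSC in all 20 alternatives (0.92 to 1.32), though with genes under an FPKM of 5 left out it was tested through vSSC alone. The 6 genes called lower numbered 4 to 7 under the other settings, and 4 to 5 with single libraries left out. The exceptions were 0 when the ribosomal protein share was fitted too and 2 without vSSC replicates 1 and 3 together. Of all genes tested, 3.54% and 5.52% were called lower in those 2 fits, and 6.38% to 12.7% under the other settings. The 16 other pathway genes called lower became 4 and 7 in those same 2 fits, and 10 to 19 with single libraries left out (10 without vSSC replicate 1 and 10 without lbSSC replicate 3). The cause was not tested. The 5 called higher numbered 4 to 6. No call changed sign. Scaling moved the median difference over all genes from 0.08 to 0.01 (median of ratios), 0.03 (quantiles) and -0.04 (one sum), and the calls over all genes from 1534 higher and 984 lower to 1274 and 1183, 1095 and 1095, and 1002 and 1363. Under each, 9 of the 10 receptor genes lay below that median, and 8 as deposited. With the replicate block, 6 of the 10 were lower and 1 higher, as without it, and 3194 of all genes were called in place of 2518. Same-numbered libraries correlated in their deviations at 0.26, -0.09, -0.06 and 0.44, and not every library correlated best with its own number, so the numbers were not taken to pair the samples. Counting error could not be given without read totals.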

Other observations

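Ligand genes were fewer than receptor genes in these cells. Of 19 Wnt genes 5 passed the filter on low values, and 1 was called higher in vSSC (Wnt11), 1 lower (Wnt9a) and 3 not called. Of all genes tested, 14.3% were called higher and 9.17% lower. Wnt5b, which regulates growth plate chondrocytes, was the most abundant, with 31.7 ± 2.18 against 24.6 ± 7.41 FPKM in long bone cells (0.40 ± 0.18, adjusted p = 0.125). Wnt11, a ligand of beta-catenin independent signalling, was at 23.9 ± 4.19 against 14.5 ± 4.94 FPKM (0.72 ± 0.21, adjusted p = 0.0296), a call lost in 7 of 20 alternatives, among them the fits without vSSC replicate 3, lbSSC replicate 3 or lbSSC replicate 4 (0.13 to 0.89 over all). Wnt9a, known from joint formation, was at 1.35 ± 0.234 against 2.63 ± 0.669 FPKM (-0.61 ± 0.17, adjusted p = 0.0244), a call lost in 6 of 19, among them those without vSSC replicate 1, lbSSC replicate 1 or lbSSC replicate 3. Wls, which carries Wnts to the surface, was at 70.1 ± 6.26 against 84.1 ± 7.15 FPKM and did not pass as deposited (adjusted p = 0.0949), but passed as lower under each of the 3 other scalings.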
